A study of Mus musculus with 24 samples.

Results

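The 14 arrays described here are leukemias of irradiated mice, ordered by how much neutrophil RNA they carried. They are the 14 of 24 arrays that the labels call B cells of leukemic bone marrow, and their groups were chosen by measured values. The log2 signals of Ngp and Lcn2 were averaged in each array, and the arrays were divided at the median of that average into 7 high and 7 low leukemias. The high group held 3 wild-type and 4 Pax5+/- arrays, and the low group held 1 wild-type and 6 Pax5+/- arrays. Pax5+/- mice carry 1 working copy of Pax5, and wild-type mice carry both. Every mouse in the series, controls included, had received 2 Gy of ionizing radiation, and no unirradiated mouse is among the arrays. The labels give 3 weeks for all arrays, so the age of the leukemic mice and the time from irradiation to leukemia are not known here. The other 10 arrays are preleukemic pro-B and pre-B bone marrow cells of irradiated mice, 3 wild type and 7 Pax5+/-, and they serve as the background level. The labels number biological replicates and the design text counts 1 mouse per array.

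The study's title concerns reduced Pax5 activity and radiation-driven B-cell acute lymphoblastic leukemia. The question addressed here is which other genes differed between leukemias with much and with little neutrophil RNA. Because the groups were made from measured values of the same arrays, every high minus low difference is a description and carries no test.

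Neutrophils mature in the bone marrow through a fixed series of steps. Promyelocytes make the proteins of the primary granules, among them elastase and myeloperoxidase. Myelocytes and metamyelocytes then make the secondary granule proteins, among them lactoferrin, cathelicidin, neutrophilic granule protein (Ngp) and lipocalin 2 (Lcn2). Mature neutrophils carry S100a8 and S100a9, which form the calcium-binding protein calprotectin, and the chemokine receptor Cxcr2. Committed B-cell precursors do not normally make these granule proteins, and Pax5 is the factor that holds B-lineage cells to their fate. In bulk RNA, more cells of a type and more RNA per cell cannot be told apart.

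The promoters of both genes that set the order, and of 2 primary granule genes whose groups did not overlap, are shown because these genes carry the pattern. Each sequence runs 5′ to 3′ on the gene's own strand from 250 bases before to 50 bases after the annotated start, from RefSeq on GRCm38.p6. Capitals mark matches to TTGCNNAA, a core of sites for the C/EBP factors, or to GAGGAAG, a core of sites for PU.1, each searched on both strands with no overlap between matches. Ngp lies at chr9:110419558-110419857 on the plus strand and Lcn2 at chr2:32387690-32387989 on the minus strand. Prtn3 lies at chr10:79879417-79879716 and Elane at chr10:79886062-79886361, both on the plus strand.
Ngp: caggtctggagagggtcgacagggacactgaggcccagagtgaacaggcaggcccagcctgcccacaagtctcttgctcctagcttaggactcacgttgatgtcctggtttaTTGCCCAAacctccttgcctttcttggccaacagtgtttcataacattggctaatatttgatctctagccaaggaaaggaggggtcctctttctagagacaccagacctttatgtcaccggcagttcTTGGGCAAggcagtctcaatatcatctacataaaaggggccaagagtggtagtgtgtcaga
Lcn2: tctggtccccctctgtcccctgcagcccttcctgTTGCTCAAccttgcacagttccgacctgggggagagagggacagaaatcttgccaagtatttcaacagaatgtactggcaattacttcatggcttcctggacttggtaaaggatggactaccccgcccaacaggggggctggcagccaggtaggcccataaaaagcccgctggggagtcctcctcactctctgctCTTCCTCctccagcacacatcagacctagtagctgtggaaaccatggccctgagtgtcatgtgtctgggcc
Prtn3: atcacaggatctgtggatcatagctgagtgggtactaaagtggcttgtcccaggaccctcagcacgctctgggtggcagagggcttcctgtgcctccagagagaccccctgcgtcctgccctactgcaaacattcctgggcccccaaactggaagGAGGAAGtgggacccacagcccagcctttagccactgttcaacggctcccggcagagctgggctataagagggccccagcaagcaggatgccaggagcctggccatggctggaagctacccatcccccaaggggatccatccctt
Elane: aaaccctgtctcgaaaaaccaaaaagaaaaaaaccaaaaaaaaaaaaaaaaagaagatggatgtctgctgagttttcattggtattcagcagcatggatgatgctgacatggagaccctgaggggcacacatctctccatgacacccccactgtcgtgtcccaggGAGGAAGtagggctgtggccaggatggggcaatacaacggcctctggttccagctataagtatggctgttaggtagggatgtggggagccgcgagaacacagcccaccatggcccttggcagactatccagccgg
The Ngp window held 2 matches to the C/EBP core, and the Lcn2 window held 1 match to each core. The Prtn3 and Elane windows each held 1 match to the PU.1 core. Of the 29 genes without overlap that were higher in the high leukemias, together with Ngp and Lcn2, 29 of 31 were found in the promoter table, in 32 entries. The C/EBP core was present in 10 of these 32 entries (31.2%), against 3547 of all 32851 promoters of the same length (10.8%). The PU.1 core was present in 11 of the 32 (34.4%), against 4477 of all promoters (13.6%). Ngp and Lcn2 set the split and the other genes were picked by it, so these shares are a description and carry no test. They are set against all promoters, not only those of the genes compared. A match is a run of letters, not a measured binding site.

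The average of Ngp and Lcn2 was a gradient in the 14 leukemias, with its widest gap low in the order. In the high group it ran from 11.61 to 12.88 (median 12.36), and in the low group from 7.18 to 11.51 (median 10.79). The step at the median, between Pax5+/- array 10 at 11.51 and Pax5+/- array 4 at 11.61, was 0.0998 on the log2 scale, so the arrays just inside and just outside the high group were close. The widest step, 1.93, separated Pax5+/- array 9 at 8.87 from Pax5+/- array 3 at 10.79 and left 3 arrays below it and 11 above. Those 3 arrays, Pax5+/- arrays 7, 2 and 9, had averages of 7.18, 8.27 and 8.87. Of the preleukemic arrays, 9 lay between 7.38 and 9.49, which contains 2 of the 3 and lies just above the other one. The remaining preleukemic array, wild-type array 1, was at 12.93.

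Ngp ran from 11.65 to 12.82 (median 12.13) in the high leukemias and from 7.25 to 11.58 (median 10.96) in the low ones. Lcn2, a protein that binds bacterial iron carriers, ran from 11.57 to 12.94 (median 12.59) in the high leukemias and from 7.12 to 11.45 (median 10.63) in the low ones. The spread inside the low group was wider than in the high group, with an SD of the average of 1.73 against 0.47 (n = 7 each). Ordering the arrays by Ngp alone or by Lcn2 alone gave the same 7 high leukemias.

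**Figure D1:**
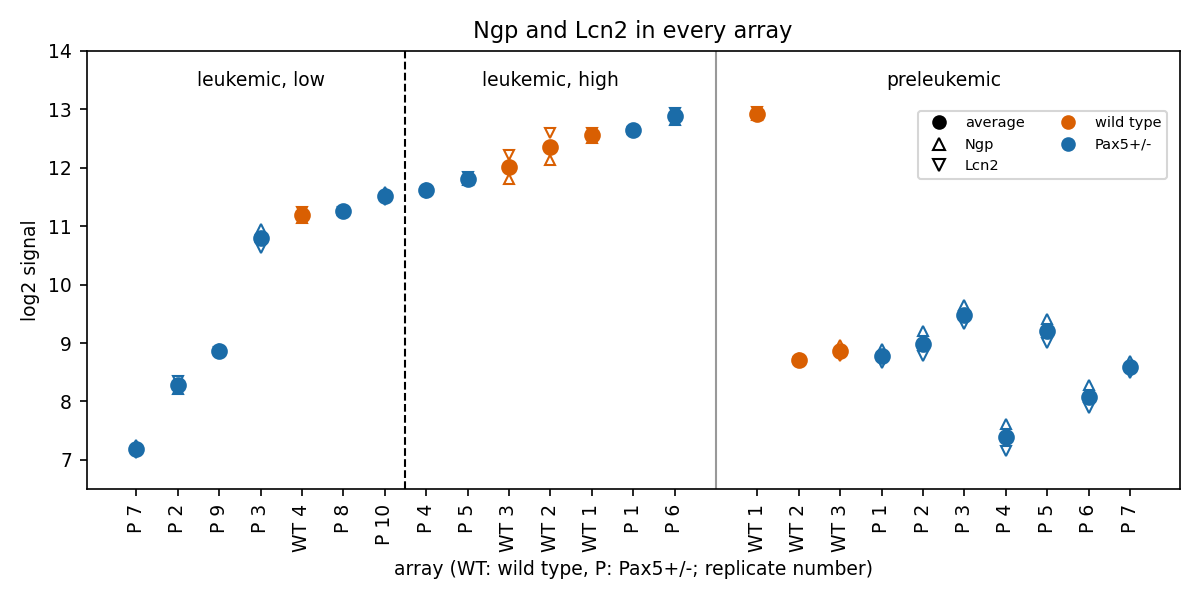
Log2 signal of Ngp and Lcn2 (open triangles) and their average (filled circles) in every array, with the 14 leukemias ordered by the average, the dashed line at the median split and the 10 preleukemic arrays at the right. The 3 lowest leukemias sit at 7.18 to 8.87, near 9 of the preleukemic arrays, and the other 11 run from 10.79 to 12.88.

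Before the gene groups are described, 3 arrays need to be named. Leukemic wild-type array 2 had the lowest summed level of pro-B and pre-B genes of the 14 leukemias (list mean 8.71) and the highest of natural killer genes (8.88). Leukemic wild-type array 1 had the highest mean of erythroid genes (9.44), followed by wild-type array 2. Leukemic Pax5+/- array 1 had the highest mean of monocyte and macrophage genes (8.97). All 3 arrays are in the high group, and for several lists the median is given with and without them. Array medians of the 14 leukemias ran from 6.10 to 6.22, and the highest correlation between any 2 of the 24 arrays was 0.994.

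The genes that differed most were higher in the high leukemias and included many genes of neutrophils and their granules, whereas the genes lower without overlap differed little. Of 15645 other named genes compared, 29 were higher in all 7 high leukemias than in any low leukemia (0.185% of genes), by 0.14 to 2.95 on the log2 scale (median 1.28). Another 17 were lower without overlap (0.109%), by -0.59 to -0.12 (median -0.22). A difference of at least 2-fold, that is 1 on the log2 scale, was seen in 123 genes that were higher (0.786%) and 13 that were lower (0.0831%). The gap between the nearest high and low arrays was under 0.1 in 22 of the 29 higher genes. No overlap and a 2-fold difference together held for 18 higher genes (0.115%) and for no lower gene. These shares are the background for the gene groups that follow, but as the order of the arrays was set by 2 neutrophil genes, nothing is read from a neutrophil group that exceeds them. The median difference over all genes was -0.03, and 38.1% of genes lay above 0.

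Across the 3 neutrophil lists together, 57 genes were compared and 55 lay above 0, with a median of 1.01. Of the 57, 13 were higher without overlap and 29 were at least 2-fold higher. Of the 29 genes higher without overlap over the whole array, 13 belonged to these lists, 1 (Hk3) to another list and 15 to none.

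Primary granule genes were higher in the high leukemias, with 11 of 13 above 0 and a median difference of 1.01, or 0.87 without Pax5+/- array 1. Elane, the neutrophil elastase, ran from 8.34 to 10.83 (median 10.03) in the high leukemias and from 6.25 to 8.18 (median 8.14) in the low ones, a 4.41-fold difference of means without overlap. Within the low group, 4 of the 7 arrays lay between 8.14 and 8.18, just under the lowest high array, and the 3 arrays below the widest gap lay at 6.25 to 6.84. Prtn3, proteinase 3, ran from 7.15 to 9.35 (median 8.13) in the high leukemias against 5.74 to 6.94 (median 6.57), a 3.13-fold difference. Ms4a3, a membrane protein of granulocyte and monocyte precursors, was 2.89-fold higher, at 6.07 to 8.58 (median 7.55) against 5.30 to 5.92 (median 5.71). The groups did not overlap for any of these 3 genes.

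Other primary granule genes had differences as large but with overlapping groups. Mpo, myeloperoxidase, ran from 7.78 to 10.68 (median 9.52) against 5.71 to 7.87 (median 7.55), a difference of 2.36. Its overlap came from 1 low array, Pax5+/- array 10 at 7.87, which lay above 1 high array, wild-type array 3 at 7.78. Ctsg, cathepsin G, differed by 2.08, and Lyz2, lysozyme, by 1.52. Fcnb, ficolin B, differed by 1.01. The members that differed in the other direction were Cst7, cystatin F, at -0.36, and Prss57, a serine protease, at -0.19. Both lay within the other group's range.

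Secondary granule genes were all above 0, 18 of 18, with a median of 1.23, and 4 were higher without overlap. Pglyrp1, a peptidoglycan recognition protein, ran from 9.26 to 11.53 (median 10.84) in the high leukemias and from 6.91 to 9.23 (median 8.27) in the low ones, a 5.61-fold difference. Itgam, the CD11b chain of the integrin Mac-1, ran from 6.93 to 9.33 (median 7.69) against 6.11 to 6.70 (median 6.18). The low group of Itgam was tight, with an SD of 0.24, and lay within or below the range of 6.20 to 7.21 in 9 preleukemic arrays. Anxa1, annexin A1, differed by 1.43, and Lyz1, a second lysozyme gene, by 0.83, or 0.44 without Pax5+/- array 1. Lyz1 and Lyz2 are closely similar in sequence, and how far their probe sets read each other's RNA was not tested.

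The best-known secondary granule genes overlapped by a few arrays. Ltf, lactoferrin, ran from 9.07 to 11.49 (median 10.58) against 6.16 to 9.23 (median 7.77), a difference of 2.72, with 6 of 7 low arrays below every high array. Camp, the cathelicidin precursor, ran from 8.25 to 10.95 (median 8.50) against 6.67 to 8.59 (median 7.59), a difference of 1.68. Mmp8, the neutrophil collagenase, ran from 6.25 to 10.03 (median 8.68) against 4.64 to 6.84 (median 5.39). Because 3 low arrays were at or below the dim level, the 30th percentile of their array, the Mmp8 difference is given as at least 6.64-fold. Hp, haptoglobin, and Chil3, a chitinase-like protein, differed by 2.01 and at least 4.25-fold. Cebpe, the transcription factor of the secondary granule stage, differed by 0.72, from 6.88 to 7.92 (median 7.30) against 6.45 to 7.01 (median 6.77).

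Genes of mature neutrophils were above 0 in all 26 that could be compared of 36 listed. Their median was 0.92, or 0.67 without Pax5+/- array 1, and 6 were higher without overlap. Of these 6, Clec4e and Stfa2 were dim in all 7 low arrays. Among the leukemias they passed the filter on dim genes only through the high group, so they had to differ and lend nothing to the count. Clec4e was also above the dim level in preleukemic wild-type array 1, at 6.05. Il1f9 was dim in 6 of the 7. S100a8 ran from 9.71 to 11.90 (median 11.18) in the high leukemias and from 5.85 to 9.53 (median 8.34) in the low ones, a 7.71-fold difference and the largest among genes without overlap. Its partner S100a9 ran from 9.24 to 11.81 (median 10.74) against 5.97 to 9.33 (median 7.81), a difference of 3.00, and overlapped by 1 high array. Ifitm6, a membrane protein of the interferon-induced transmembrane family, was 6.79-fold higher, at 9.90 to 11.81 (median 10.78) against 5.71 to 9.81 (median 8.77). The highest low array of Ifitm6 lay just under the lowest high array.

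Among receptors and surface proteins of mature neutrophils, several were near the dim level in the low leukemias. Ly6g came near it in Pax5+/- arrays 7 and 2, at 5.29 and 5.60, but not across the low group. Ly6g, the antigen by which mouse neutrophils are stained, ran from 7.97 to 12.04 (median 10.52) against 5.29 to 9.09 (median 7.39), a difference of 2.94. Cxcr2, the receptor that guides neutrophils out of the marrow, ran from 5.70 to 8.95 (median 7.36) against 4.64 to 5.81 (median 5.32), at least 3.79-fold. Csf3r, the receptor of the neutrophil growth factor G-CSF, differed by 1.31, at 5.57 to 8.18 (median 6.52) against 5.24 to 5.88 (median 5.40). For Cxcr2 and Csf3r, 5 of 7 low arrays lay below every high array. Il1f9, an interleukin-1 family cytokine, was at least 2.26-fold higher, and Clec4e, a receptor for microbial glycolipids, at least 1.70-fold. Mmp9, gelatinase B, differed by only 0.90 and its groups overlapped widely, at 8.35 to 11.84 against 7.45 to 10.18.

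**Figure D2:**
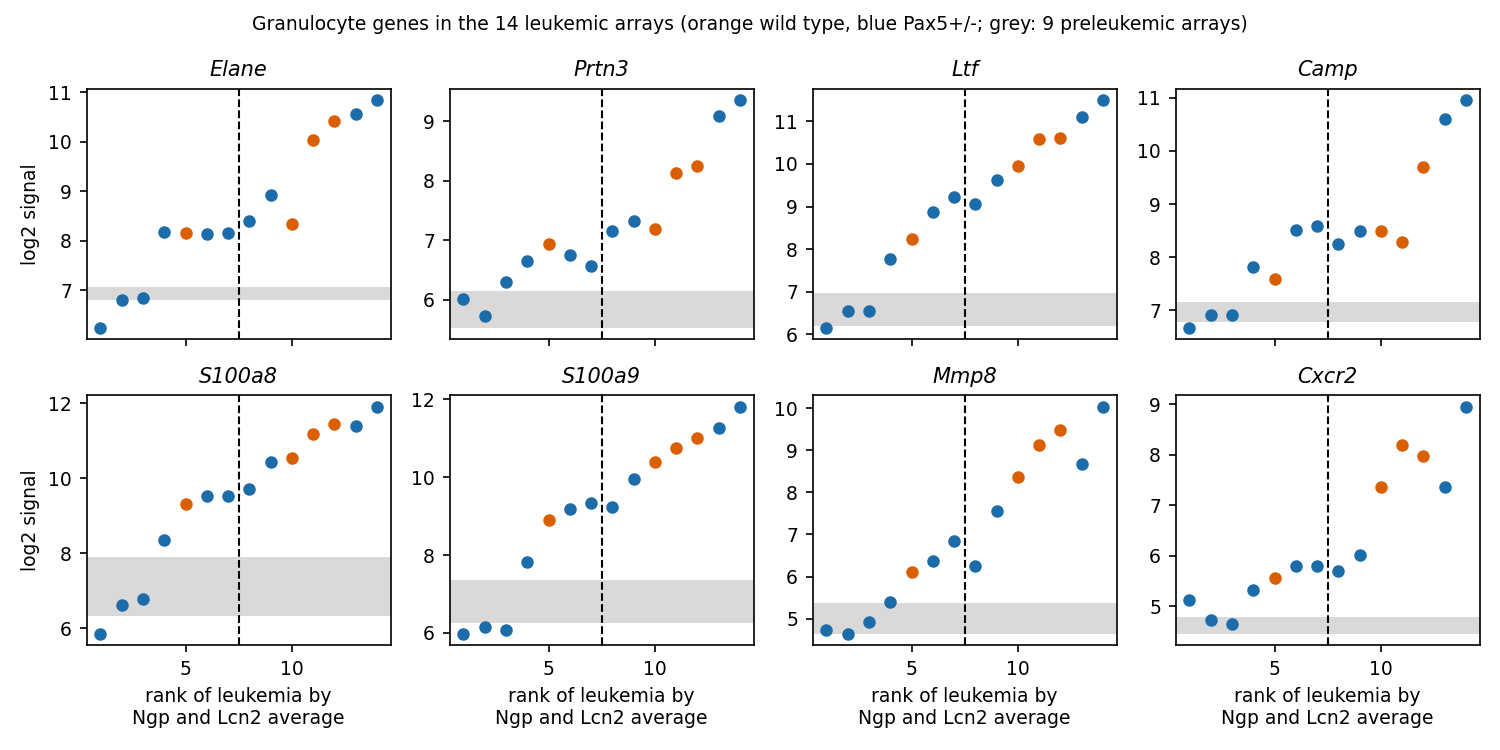
Log2 signal of 8 neutrophil genes in the 14 leukemias, ranked from 1 to 14 by the average of Ngp and Lcn2, with wild-type arrays in orange, Pax5+/- arrays in blue, the median split dashed and the range of 9 preleukemic arrays in grey. For S100a8 the low group reaches 9.53 and the high group starts at 9.71, and the 3 lowest leukemias lie at 5.85 to 6.79, within or under the grey band.

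The same 3 leukemias lay at background for most of these genes. For Ngp, Lcn2, S100a8, S100a9, Ltf, Camp, Elane and Mmp8, exactly 3 low leukemias, Pax5+/- arrays 7, 2 and 9, were within or below the range of 9 preleukemic arrays, and no high leukemia was. The gap in the average of Ngp and Lcn2 marked these 3 arrays out, so those 2 genes are no separate evidence for the pattern. For Mmp8 the 3 arrays were below the dim level, at up to 4.92, so it adds little. For Ltf the highest of the 3 was 6.56, the top of the preleukemic range was 6.98 and the lowest of the other 11 leukemias was 7.77. Of 12 genes set against that range, 4 did not follow this pattern. For Mpo and Cxcr2, 2 low leukemias were within or below it. Of the 3 named above, Pax5+/- array 9 was above it for Mpo, at 6.92, and Pax5+/- array 7 for Cxcr2, at 5.13. For Ly6g 4 low leukemias were within or below it. For Retnlg, a resistin-like protein, 4 low leukemias and 1 high leukemia were. Preleukemic wild-type array 1, left out of that range, had 12.09 for S100a8 and 11.54 for Ltf, above every leukemia for both. It was above the other 9 preleukemic arrays for 25 of the 29 genes without overlap and for 101 of the 123 genes at least 2-fold higher. Over all genes, 17.6% were above in that array.

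Set against the 3 leukemias below the widest gap, the other 11 had 59 genes higher without overlap (0.377%) and 61 lower (0.39%), and 90 genes at least 2-fold higher (0.575%) and 28 lower (0.179%). The medians of the primary granule, secondary granule and mature neutrophil lists were 1.01, 1.24 and 0.79 in this comparison, which was added after seeing the data. All 3 of the lower leukemias were Pax5+/-.

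Of the 29 genes without overlap, 15 were in none of the lists. Slfn4, a Schlafen family gene of myeloid cells, ran from 6.30 to 9.21 (median 7.35) against 5.37 to 6.29 (median 5.52), a 3.49-fold difference. Slfn2, a Schlafen gene also used by lymphocytes, was 2.35-fold higher and ran from 7.98 to 10.09 (median 8.26) against 6.62 to 7.90 (median 7.66). Unlike the granule genes, Slfn2 in 9 preleukemic arrays was at 8.06 to 10.67, in or above the high range. Anxa2, annexin A2, which binds membranes and calcium, was 3.15-fold higher, at 7.32 to 9.95 (median 8.12) against 6.63 to 7.31 (median 7.04).

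Several of the unlisted genes encode receptors or adaptors of myeloid cells. Clec4a2, an inhibitory lectin receptor, was at least 2.44-fold higher. Gca, grancalcin, a calcium-binding granule protein that was dim in 6 of the 7 low arrays, was at least 2.31-fold higher. Ccr1, a chemokine receptor, was dim in all 7 low arrays and so, like Clec4e, had to differ. It was at least 1.77-fold higher, and C5ar1, the receptor of complement fragment C5a, differed by 0.80. Pram1, an adaptor protein of granulocytes, differed by 1.12. Smaller differences without overlap were seen for 2 lysosomal enzymes, Asah1, acid ceramidase, at 0.70, and Hgsnat, which takes part in heparan sulfate breakdown, at 0.61. Rhoa, a small GTPase, and Capza1, an actin capping subunit, differed by only 0.16 and 0.14. Stfa2, a stefin, was at or below the dim level in all 7 low and 4 of 7 high arrays, so its order has little weight.

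Transcription factors of the myeloid lineage had small differences. Of 13 compared, 9 lay above 0, with a median of 0.14 and no gene without overlap. The member with the largest difference upward, Irf8, which directs monocyte and dendritic fate and is also used by B cells, differed by 0.45, at 8.91 to 10.78 (median 10.37) against 8.94 to 10.78 (median 9.28). Runx1, used by both myeloid and B-cell precursors, differed by -0.41. Spi1, which encodes PU.1, differed by 0.27 and Cebpa by 0.24, while Gfi1, a repressor needed for neutrophil maturation, differed by -0.03. With the 11 leukemias above the widest gap set against the 3 below it, the median of this list was -0.075.

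The list of neutrophil growth factors, chemokines and their receptors had 11 of 16 genes above 0 and a median of 0.26, or 0.14 without Pax5+/- array 1. Its largest differences were in the receptors Cxcr2 and Csf3r, given above. Csf3, which encodes G-CSF, differed by -0.10 and its levels lay between 5.31 and 5.62 in the 14 leukemias. These levels are close to the dim level, where differences are compressed, so little can be read from them. Cxcl12, a chemokine that stromal cells make to hold leukocytes in the marrow, differed by 0.92, at 7.97 to 9.22 (median 8.55) against 7.28 to 8.49 (median 7.64), and its receptor Cxcr4 by -0.26. The NADPH oxidase, with which phagocytes make superoxide, had all 5 subunits above 0 and a median of 0.42, led by Ncf1 at 0.84 and Cybb at 0.80. Without Pax5+/- array 2, whose Cybb signal was 8.63, the Cybb difference was 0.43. Cybb was higher in all 7 high leukemias than in 3 of the low ones, at 11.26 to 12.08 (median 11.53) against 8.63 to 11.35 (median 11.28).

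Lists of other blood cells also had medians above 0. Erythroid, natural killer and T-cell RNA stood high in 1 to 3 arrays, whereas monocyte RNA was spread over the high group. Monocyte and macrophage genes were above 0 in 20 of 20, with a median of 0.60 and none without overlap. The list mean ran from 7.63 to 8.97 in the high leukemias and from 6.75 to 7.90 in the low ones, against 6.02 to 7.30 in the 10 preleukemic arrays. Ccr2, the chemokine receptor of inflammatory monocytes, ran from 5.48 to 9.88 (median 7.48) against 5.18 to 6.33 (median 5.41), a difference of 2.30 with 6 of 7 low arrays below every high array. Ms4a6c differed by 1.39 and Csf1r, the receptor of the macrophage growth factor, by 0.86. Without Pax5+/- array 1 the list median was 0.42. How far monocyte RNA takes part in the neutrophil differences was not tested.

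Erythroid genes were above 0 in 18 of 19, with a median of 0.72. The list mean was 9.44 and 9.16 in leukemic wild-type arrays 1 and 2 and at most 7.52 in the other 12 leukemias. Slc4a1, the red-cell anion exchanger band 3, was 11.50 and 11.29 in these arrays and at most 9.16 elsewhere among the leukemias. Without both arrays the list median was -0.067, and in Pax5+/- leukemias alone it was 0.03. The medians of primary, secondary and mature neutrophil genes without both arrays were 0.94, 1.18 and 0.93. As 2 neutrophil genes set the order, nothing is read from these medians staying above 0.

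Natural killer and cytotoxic genes were above 0 in 13 of 14, with a median of 0.79. Wild-type array 2 had a list mean of 8.88 and Pax5+/- array 1 had 7.04, whereas the other 12 leukemias lay between 5.62 and 6.08. Gzma, granzyme A, was 10.77 in wild-type array 2, and 5 of the 7 high leukemias were at or below the dim level for it. Without wild-type array 2 and Pax5+/- array 1 the list median was 0.05. T-cell genes had a median of 0.32, with 12 of 16 above 0, and a median of 0.04 without the same arrays. Cd3g, a chain of the T-cell receptor complex, reached 10.42, 9.68 and 9.28 in wild-type array 2 and Pax5+/- arrays 1 and 4, and was at most 6.28 in the other 11.

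Interferon-induced genes were above 0 in 19 of 19, with a median of 0.74 and none without overlap. The list mean ran from 7.02 to 9.22 (median 7.95) in the high leukemias and from 6.69 to 7.63 (median 7.27) in the low ones. Usp18, which restrains interferon signalling, ran from 6.36 to 10.87 (median 8.99) against 6.48 to 8.73 (median 6.81), and Oas2, a sensor of double-stranded RNA, from 7.08 to 10.06 (median 8.66) against 6.09 to 7.92 (median 7.24). Wild-type array 3, a high leukemia, had the lowest Usp18 of all 14. The list median was 0.51 without wild-type array 2, and 0.40 without that array and Pax5+/- array 1.

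The remaining lists of other cell types had no gene without overlap. Eosinophil, basophil and mast cell genes had a median of 0.35 with 11 of 14 above 0, or 0.21 without wild-type array 3, led by Prg2, the major basic protein of eosinophils, at 1.10. Its high group ran from 6.72 to 9.19 (median 7.36) and its low group from 5.83 to 7.45 (median 6.41). Dendritic cell genes had a median of 0.22, plasma cell genes 0.10, megakaryocyte genes 0.14, stem and progenitor genes -0.06, and stromal and endothelial genes -0.09.

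**Figure D3:**
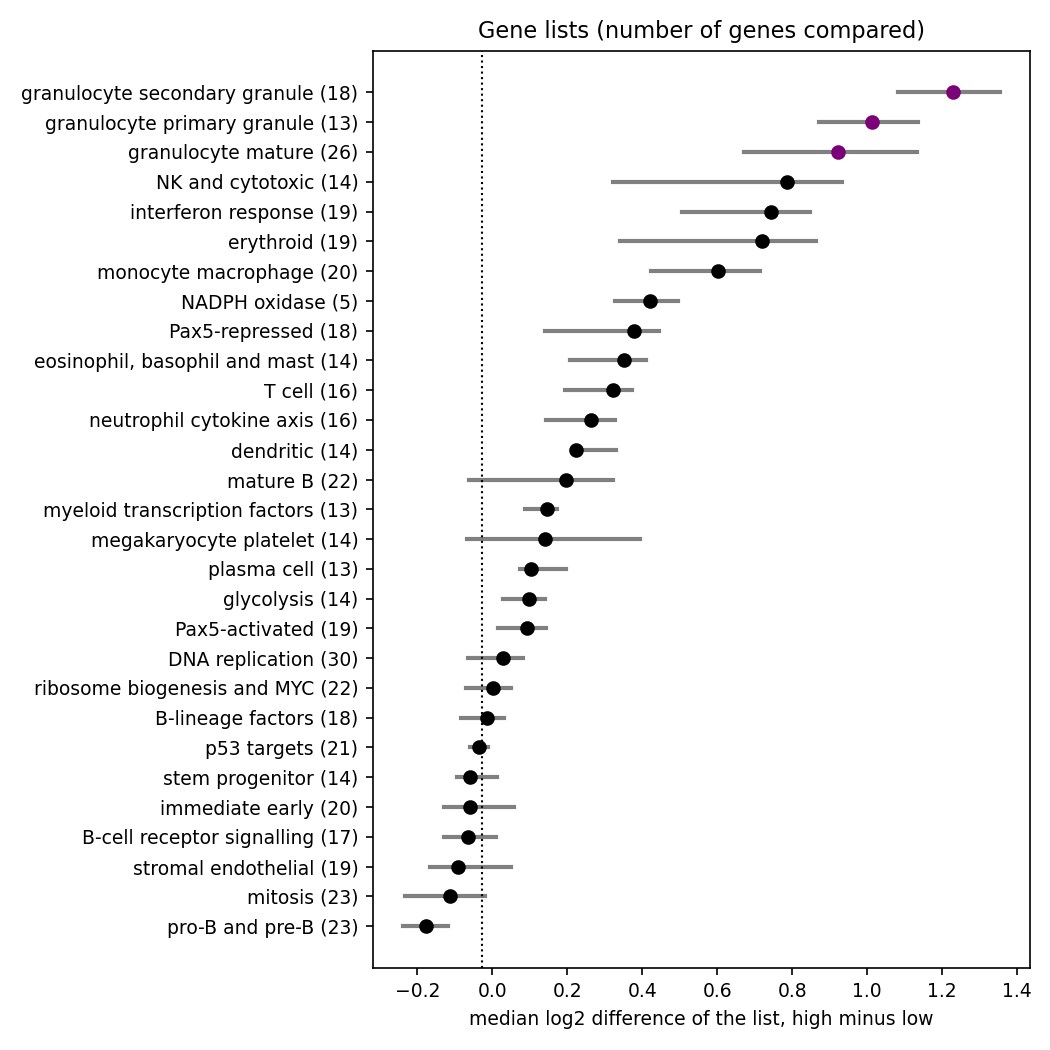
Median high minus low difference (log2) of each of 29 gene lists (points; number of genes compared in brackets), with the range over leaving out each array in turn (bars), the neutrophil lists in purple and the median of all genes dotted at -0.03. The 3 neutrophil lists lie highest at 0.92 to 1.23, and the natural killer, interferon and erythroid lists follow at 0.79, 0.74 and 0.72. The natural killer and erythroid lists have the longest bars among these 6 lists, reaching down to 0.32 and 0.34.

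The B-lineage genes that define the label were present in all 14 leukemias and had small differences. Cd79a, a signalling chain of the B-cell receptor, ran from 10.46 to 12.06 (median 11.54) in the high leukemias and from 11.11 to 12.28 (median 11.61) in the low ones. Its partner Cd79b differed by -0.13 and Ebf1, the factor that starts the B-cell program, by -0.10. Il7r, the growth factor receptor of B-cell precursors, differed by -0.14, at 11.19 to 12.77 (median 12.27) against 11.88 to 12.64 (median 12.25). All 4 genes had overlapping groups. Without wild-type array 2 the differences of Ebf1 and Il7r were 0.059 and 0.021.

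Pax5 itself varied widely within both groups. It ran from 6.34 to 10.74 (median 8.36) in the high leukemias and from 7.92 to 11.37 (median 8.36) in the low ones, with means of 8.53 ± 1.74 and 9.06 ± 1.28 (SD, n = 7 each). The difference of -0.53 was smaller than either SD, and ran from -0.90 without wild-type array 1 to -0.14 without Pax5+/- array 2. The lowest Pax5 value, 6.34, was in wild-type array 2, and the next, 6.87, in Pax5+/- array 1. All 10 preleukemic arrays were at 11.34 or above. The list of B-lineage factors had a median of -0.02 with 9 of 18 above 0.

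Genes of the pro-B and pre-B stages were below 0 in 19 of 23, with a median of -0.18 and no gene without overlap. Igll1, part of the surrogate light chain of the pre-B-cell receptor, ran from 9.81 to 13.12 (median 11.64) against 10.56 to 13.21 (median 12.78), a difference of -0.93. Bst1, a surface enzyme of B-cell precursors, ran from 5.95 to 7.99 (median 7.09) against 7.00 to 10.64 (median 8.03), a difference of -1.38. The recombinase gene Rag1 differed by -0.33 and Dntt, which adds untemplated bases to antigen receptor genes, by -0.14. The list mean overlapped between groups, at 8.71 to 10.01 against 9.47 to 10.12, and its lowest value belonged to wild-type array 2. Without wild-type array 2 and Pax5+/- array 1 the list median was -0.0048. That of the secondary granule genes, the class of the genes that set the split, was 1.19, from which nothing is read.

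Mature B-cell genes had a median of 0.20 with 13 of 22 above 0, and -0.063 without Pax5+/- array 1. Cd72, an inhibitory co-receptor and a gene that Pax5 activates, differed by 1.61, at 7.91 to 10.26 (median 9.33) against 5.96 to 10.74 (median 7.39). Its highest value was in a low leukemia, Pax5+/- array 2, the array that also had the highest Pax5. Genes activated by Pax5 had a median of 0.09 with 10 of 19 above 0. Genes repressed by Pax5 had a median of 0.38 with 16 of 18 above 0 and none without overlap, but 0.14 without Pax5+/- array 2. The list mean was 9.01 to 9.34 in the high leukemias and 7.99 to 8.98 in the low ones, with Pax5+/- array 2 lowest, and the list includes Ccr2 at 2.30, Csf1r at 0.86, Cd28 at 1.65 and Lilrb4a at 1.56, which monocytes, T cells or other myeloid cells also use. B-cell receptor signalling genes had a median of -0.06.

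**Figure D4:**
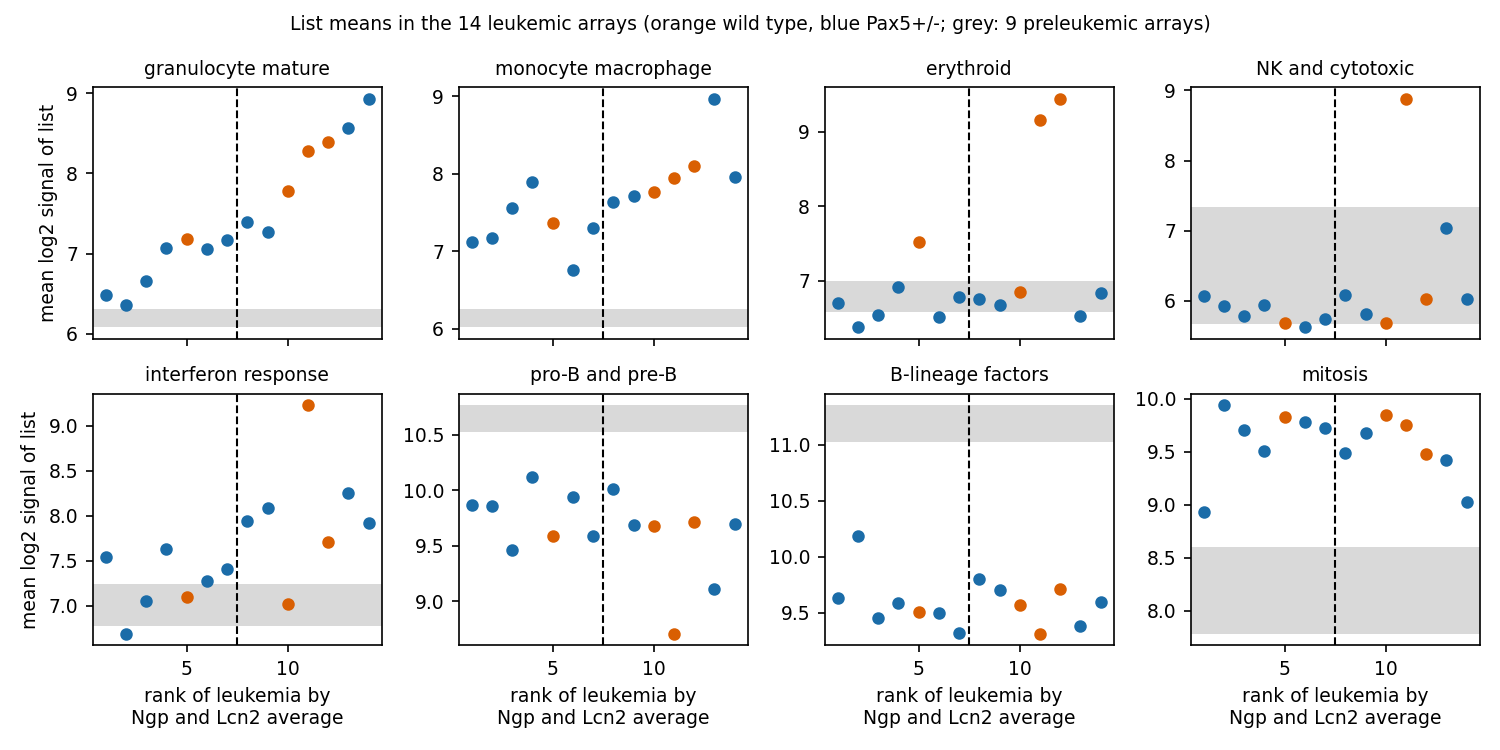
Mean log2 signal of 8 gene lists in the 14 leukemias, ranked by the average of Ngp and Lcn2, with wild-type arrays in orange, Pax5+/- arrays in blue and the range of 9 preleukemic arrays in grey. Mature neutrophil genes are higher in every high than in every low leukemia, whereas erythroid genes stand high in 2 wild-type arrays (9.44 and 9.16) and natural killer genes in wild-type array 2 (8.88).

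Genes of cell division and growth had small differences. Mitotic genes had a median of -0.11 with 3 of 23 above 0, and DNA replication genes a median of 0.03 with 18 of 30 above 0. Mki67, a marker of cycling cells, ran from 11.03 to 11.62 (median 11.46) against 10.72 to 11.69 (median 11.53). Ribosome biogenesis and MYC-linked genes had a median of 0.00 with 11 of 22 above 0, and Myc itself differed by -0.10. The receptors Flt3 and Kit, used by early progenitors, differed by 0.15 and -0.34 with overlapping groups, and within the high group they ranged from 9.27 to 13.28 and from 7.26 to 10.47. Leaving out 1 array gave -0.25 (without Pax5+/- array 4) to 0.42 for Flt3 and -0.70 to 0.14 (without Pax5+/- array 10) for Kit, so neither had a settled direction, and Myc likewise ran from -0.47 to 0.10 (without wild-type array 1). Targets of p53, the factor activated by radiation damage, had a median of -0.04 with 9 of 21 above 0, and immediate-early genes had a median of -0.06. Leaving out 1 array could turn the sign of the medians of the DNA replication, ribosome biogenesis and immediate-early lists, and of the B-lineage factor, B-cell receptor signalling, stem and progenitor, and stromal lists, all within 0.1 of 0.

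Glycolytic genes had a median of 0.10 with 10 of 14 above 0 (0.029 without Pax5+/- array 1), and 1 of the 14 was higher without overlap. This was Hk3, the hexokinase of myeloid cells, at 6.28 to 7.74 (median 6.92) against 5.91 to 6.14 (median 6.08), a 1.70-fold difference. The range of 9 preleukemic arrays, 5.94 to 6.27, overlapped the low group. Hk1 and Hk2, which most other cells use, differed by 0.04 and 0.27.

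Genes lower in the high leukemias without overlap were few and their differences small. Tmem218, a membrane protein of cilia, had the largest at -0.59, at 6.84 to 7.73 (median 7.57) against 7.76 to 8.47 (median 7.98). Pxn, the focal adhesion protein paxillin, ran from 9.39 to 9.55 (median 9.47) against 9.59 to 10.44 (median 9.72), a difference of -0.39. Uqcrc1, a subunit of respiratory complex III, differed by -0.27 and Cux2, a homeobox factor, by -0.12. None of the 17 was in any list, and in all 17 the gap between the groups was under 0.1 on the log2 scale, the widest being 0.0964.

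Larger differences downward came with overlapping groups. Nrg4, a secreted growth factor of the neuregulin family, ran from 5.15 to 7.57 (median 5.66) against 5.69 to 9.64 (median 6.57), a difference of -1.30. Cish, a STAT5-induced inhibitor of cytokine signalling, ran from 6.26 to 8.90 (median 6.96) against 6.12 to 9.62 (median 8.71), a difference of -1.10. Among the 13 genes at least 2-fold lower were also the Y-linked Eif2s3y, Uty and Kdm5d, and Xist was 2.79 higher with overlap.

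Those sex-linked genes divided the 14 arrays into 2 clusters. The mean of Eif2s3y, Kdm5d and Uty lay between 4.72 and 4.95 in 9 leukemias and between 8.41 and 8.77 in 5. Y-linked RNA was present in 1 of 7 high and 4 of 7 low leukemias, which was not a detectable difference at this number of arrays (two-sided Fisher's exact test, p = 0.266, adjusted p = 0.531 over 2 tests). Wild-type arrays were 3 of 7 in the high group and 1 of 7 in the low group (two-sided Fisher's exact test, p = 0.559, adjusted p = 0.559).

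Genotype and granulocyte level could be partly separated, because the Pax5+/- leukemias spanned the whole order, from 7.18 to 12.88, and the wild-type leukemias only its upper part, from 11.19 to 12.55. Among Pax5+/- leukemias alone, 4 high and 6 low, the medians were 1.12 for primary granule genes, 1.37 for secondary granule genes and 1.03 for mature neutrophil genes. Among wild-type leukemias, 3 high and 1 low, they were 0.68, 0.99 and 0.91. Other lists differed more between genotypes. Natural killer genes had medians of 0.48 and 1.21, and erythroid genes 0.03 and 1.06, in Pax5+/- and wild-type leukemias. Among wild-type leukemias, natural killer genes stood high in array 2 alone (list mean 8.88, against 5.67 to 6.02). Erythroid genes stood high in wild-type arrays 1 and 2, both in the high group. Neither difference between genotypes was tested.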

How the data were processed

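RNA was measured on 1-colour arrays, 1 per mouse. The deposited table holds a log2 signal for each of 35556 probe sets. The submitters' processing notes name RMA and oligo, without versions, as what the authors used. RMA compresses differences near background. Values ran from 3.48 to 14.2, and precision is limited by how few arrays there are.

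Of the probe sets, 21789 had 1 gene symbol in the platform annotation and 1621 had several and were not named. For each of 19938 genes the probe set with the highest mean was used. Genes at or above the 30th percentile of the array on at least 3 of all 24 arrays, preleukemic ones included, were kept (15647, including Ngp and Lcn2). That percentile was 5.18 to 5.35 over the 24 arrays. Where the lower group was at or below it, differences are lower bounds.

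Differences are between group means of 7 arrays. The members and the gene lists were chosen with earlier results of these data known. Named genes are Ngp, Lcn2 and a fixed panel, the 15 largest differences each way among genes without overlap, and up to 4 members of each list without overlap, or else the 2 with the largest differences; other genes, among them most granule genes with overlap, were chosen after their values were seen. Small RNAs, predicted genes and segments of antigen receptors were not ranked. The Y-linked mean used 3 genes; another planned Y-linked gene and 1 planned panel gene were not analysed here. Only genotype and Y-linked RNA were tested, with Fisher's exact test and Benjamini-Hochberg adjustment. The comparison, written again for the check, recovered known shifts in simulated arrays. Gene SDs there were capped below those of genes such as S100a8, so recovery at the real spread was not checked. Python 3.11.15, numpy 2.4.6, pandas 2.3.3 and scipy 1.17.1 were used. The 28 alternatives changed scaling, filter, probe set, split or arrays.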

Additional observations from a re-analysis of the deposited data

Results flagged for a closer look

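In 7 of 60 combinations of a list mean and a group 1 array lay far from the others, where chance flags about 1 in 20 of independent combinations. The groups share arrays, so the combinations are not independent and no excess over that rate is claimed. Natural killer genes gave 3 of the 7. Leukemic wild-type array 2 had a list mean of 8.88, against 5.68 to 7.04 in the other high leukemias and 5.67 to 6.02 in the other wild-type leukemias. Pax5+/- array 1 had 7.04, against 5.62 to 6.08 in the other Pax5+/- leukemias. Pax5+/- array 1 also had the highest mean of monocyte and macrophage genes in the high group, 8.97 against 7.63 to 8.11.

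The pro-B and pre-B mean of wild-type array 2, 8.71, was the lowest of its genotype, whose other arrays lay between 9.59 and 9.71. In the low group, Pax5+/- array 2 had the highest mean of B-lineage factors, 10.18 against 9.32 to 9.63. Pax5+/- array 7, the leukemia with the least Ngp and Lcn2, had the lowest mean of mitotic genes in that group, 8.93 against 9.51 to 9.94.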

How the results depend on the processing

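Of 28 alternatives, 25 were planned and 3 were chosen after seeing the data. The count of lower genes without overlap, 17, was 49 with each array centred on its median, 34 with quantile normalization repeated on the 14 leukemias, and 33 when the arrays were split on 6 other granulocyte genes, which moved Pax5+/- array 10 into the high group and array 4 out. With the 4 highest against the 4 lowest arrays, 432 genes were higher and 707 lower without overlap, and the primary and secondary granule medians were 1.71 and 1.94. In Pax5+/- leukemias alone the counts were 118 and 173, and in wild-type leukemias alone 3192 and 4740; fewer arrays overlap less by construction. The 11 leukemias above the widest gap against the 3 below gave 59 higher and 61 lower. The lower count was 63 without wild-type arrays 1 and 2 and 53 without wild-type array 2 and Pax5+/- array 1. Leaving out 1 array gave 29 to 65 higher genes (65 without Pax5+/- array 4, 51 without array 10) and 24 to 51 lower genes (51 without Pax5+/- array 10). Taking arrays out of the same split, as in these counts and those of the 4 highest against the 4 lowest, could only keep or raise the counts. Their rise is therefore not read as a result.

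Several list medians near 0, and that of the erythroid genes, changed sign. With 11 against 3 arrays, mitotic genes had 0.072, megakaryocyte genes -0.12, mature B-cell genes -0.085 and myeloid transcription factors -0.075. In wild-type leukemias alone, dendritic genes had -0.10 and megakaryocyte genes -0.48. Erythroid genes had -0.067 without wild-type arrays 1 and 2, and mature B-cell genes -0.016 without wild-type array 2 and Pax5+/- array 1. Leaving out 1 array gave -0.067 to 0.39 for megakaryocyte genes and -0.063 to 0.32 for mature B-cell genes. The causes were not tested. Of 2312 values of named genes, 2266 moved by less than the spread within groups, and 46 by more. No paired analysis was possible because the comparison has no test and the replicate numbers are only names. Few arrays, unknown sampling times, bulk RNA and a median split inside a gradient limit what these values show.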
